A study of Rattus norvegicus with 24 samples.

Results

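The ventral tegmental area (VTA) libraries of rats given fentanyl were compared with those of rats given saline, over both sexes together. All 10 VTA libraries of the series entered the comparison, of 24 libraries in all. Membership followed the labels alone, by region, and no measured value was used to choose a library. The fentanyl group held 3 male rats (animal codes N1, N2 and N3) and 3 female rats (L1, L2 and L7). The saline group held 2 male rats (SM1 and SM3) and 2 female rats (SF1 and SF2). The rats were Sprague Dawley, an outbred laboratory strain. The labels give no dose and no age.

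The study's title concerns opioid withdrawal, choice between fentanyl and food, and transcription in the mesolimbic pathway by sex. The rats were killed in place of a last choice session, and both sides of the brain were punched from 1 mm slices with a tool of 1.19 mm inner diameter. Total RNA was depleted of ribosomal RNA and sequenced, 1 library per rat and region. Each of the 10 rats also gave a nucleus accumbens (NAc) library, and all 14 NAc libraries of the series served for comparison. Male and female rats carry separate animal code series, so sex and cohort cannot be told apart, and sex was held in the model as a covariate. The male and female libraries below are numbered by the animal codes.

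The VTA is a midbrain region whose dopamine neurons project to the NAc. Its local GABA neurons hold dopamine neurons in check and carry mu opioid receptors, through which fentanyl and other opioids release the dopamine neurons from inhibition. Withdrawal from repeated opioids is known for lowered dopamine output and for stress signalling in the same circuit. The mitochondrial chromosome, to which many of the values below belong, encodes subunits of the respiratory chain together with the ribosomal and transfer RNAs needed to translate them. Both of its strands are copied into long transcripts that are then cut into single RNAs, largely at the transfer RNAs between them.

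Counts per VTA library summed to 4.49 M to 6.30 M in the fentanyl group and 5.17 M to 5.88 M in the saline group. Between 18046 and 19398 features had a count in a fentanyl library (mean 18884), and 19069 to 19475 in a saline library (mean 19306). The Y chromosome held 1260 to 1772 counts in the male libraries and 23 to 41 in the female libraries, which follows the labelled sex in all 10. On the first principal component of 2000 features, which carried 26.2% of the variance, female fentanyl 2 lay at 48.9 and the other 9 libraries between −22.1 and 13.2. The deposited tables identify features by Ensembl number and position, with no gene symbol, so the labelled tissue could not be checked against named markers such as those of dopamine neurons. Summed over the 564 features at least 4-fold higher in the NAc libraries of the same rats than in their VTA libraries, VTA libraries held 6592 to 8566 CPM (counts of a feature scaled to a common library total, after TMM adjustment between libraries) in the fentanyl group and 7386 to 9576 CPM in the saline group. Over the 491 features at least 4-fold higher in the VTA, the sums were 18978 to 24632 CPM and 16425 to 25068 CPM. These sums overlapped between the groups, and whether punch placement has a part in the values below was not tested.

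No feature passed the test of fentanyl against saline over both sexes. Of 14400 features tested by edgeR's quasi-likelihood test, 0 had a Benjamini-Hochberg adjusted p under 0.05 (percent called 0%), and the lowest adjusted p was 0.0686. At an unadjusted p under 0.05 there were 1310 features (9.1%), 671 with higher counts in the fentanyl libraries (4.66%) and 639 with lower counts (4.44%). DESeq2, run on the same libraries and design, called 50 of 15974 features (0.313%), of which 31 were higher (0.194%) and 19 lower (0.119%). The median log2 fold change of those calls was 0.89 among the higher and −0.56 among the lower. All 50 had the same sign and an unadjusted p under 0.05 in edgeR, and 7 of them lay on the mitochondrial chromosome. Most differences were small: the median absolute log2 fold change over all features was 0.17 with a median standard error of 0.19, and 306 features (2.125%) differed by more than 2-fold. Libraries of the same sex and treatment differed from each other by a median of 0.209 to 0.351 on the log2 scale. Below, "higher" and "lower" compare values of features that did not pass the adjusted edgeR test.

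The mitochondrial chromosome supplied a larger part of the counts in the fentanyl libraries. Its share of all counts was 21.3%, 22.1% and 25.4% in male fentanyl 1, 2 and 3, and 26.9%, 25.7% and 21.4% in female fentanyl 1, 2 and 7. The share was 18.4% and 17.6% in male saline 1 and 3, and 21.04% and 19.4% in female saline 1 and 2. Every fentanyl library lay above every saline library, by a narrow margin between male fentanyl 1 and female saline 1. The means were 23.8% ± 2.46 (SD, n = 6) and 19.1% ± 1.48 (SD, n = 4), a difference of 4.69 percentage points. An exact two-sided permutation test that reassigned treatment within each sex gave p = 0.03 over 100 regroupings, of which the smallest possible p is 0.01. Leaving out male saline 1, male saline 3 or female saline 2 gave an exact permutation p of 0.05, with differences of 4.89, 4.48 and 4.28 points. This pattern was known from earlier work on the same files, so the test is no independent evidence for it.

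The direction was the same in both sexes. Male rats had 23.0% ± 2.17 (n = 3) with fentanyl, and the saline males were at 17.6% and 18.4%. Female rats had 24.6% ± 2.88 (n = 3) and 20.2% ± 1.14 (n = 2). Within a sex alone, the exact permutation p was 0.1 in males and 0.2 in females, and in males that is the smallest p that 3 rats against 2 allow. The counts outside the mitochondrial chromosome ran from 3.29 M to 4.91 M in the fentanyl libraries and from 4.16 M to 4.74 M in the saline libraries. The shares were highest in female fentanyl 1, female fentanyl 2 and male fentanyl 3. These libraries had the fewest such counts (3.29 M, 3.61 M and 3.97 M). They also had the fewest features with a count (18046, 18767 and 18616). Whether library depth has a part in the share was not tested. A share cannot tell more mitochondrial RNA from less of the other RNA, and in tissue punches fewer cells of a type cannot be told apart from less RNA per cell.

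**Figure D1:**
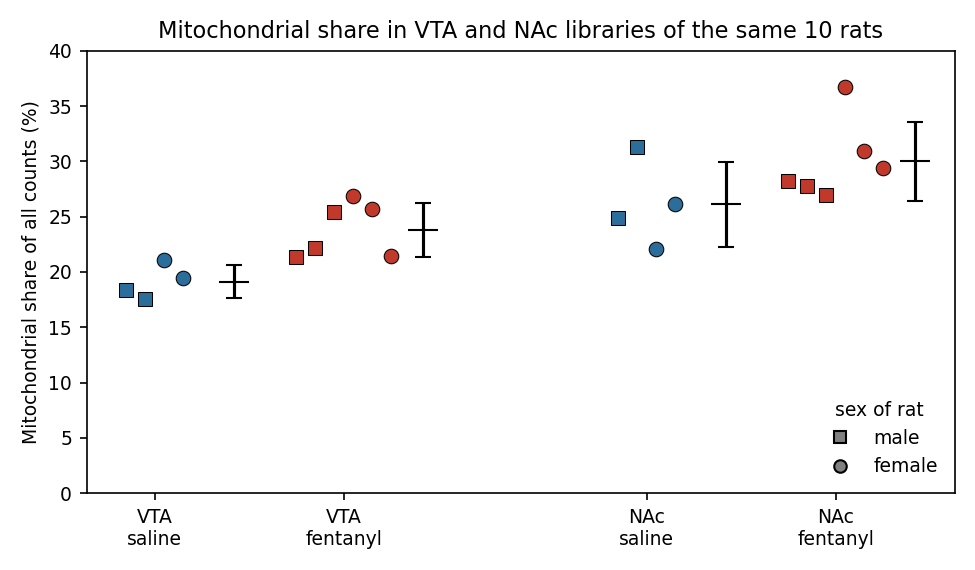
Share of all counts on the mitochondrial chromosome (vertical axis, %) in the VTA and NAc libraries of the same 10 rats, by treatment; squares are males, circles are females, and bars give the mean ± SD. The 6 VTA fentanyl libraries sit between 21.3% and 26.9%, above the 4 saline libraries at 17.6% to 21.04%, while in the NAc the groups overlap.

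In the NAc of the same rats the share was 26.9% to 36.7% with fentanyl (mean 30.0%) and 22.1% to 31.3% with saline (mean 26.1%), with overlap between the groups. The share in the VTA came almost wholly from long features. Mitochondrial features of 200 nt or more held 23.0% of all counts with fentanyl and 18.6% with saline, a difference of 4.35 points (exact permutation p = 0.03, 0.045 after Benjamini-Hochberg adjustment over the 3 shares tested). Features under 100 nt, the size class of transfer RNA genes, held 0.820% and 0.483%, a difference of 0.337 points (exact permutation p = 0.13, adjusted 0.13). They made up 1.96% to 5.47% of the mitochondrial counts in the fentanyl libraries (mean 3.37%) and 2.37% to 2.72% in the saline libraries (mean 2.52%). Most of this came from a single feature, of 69 nt at 6865 to 6933. On average it made up 3.01% of the mitochondrial counts with fentanyl and 2.20% with saline, and it is described below.

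Feature by feature, the tables list 35 mitochondrial entries, 32 of which had a count in the VTA and 26 of which were tested. No entry lies in the stretches between those at 1 to 67, 1026 to 1093 and 2665 to 2739. The first entry of 200 nt or more starts at 2740. The shares above cover the listed entries only, and not every RNA that the chromosome encodes. All 26 tested had a positive log2 fold change, against 50.3% of all features tested. At an unadjusted edgeR p under 0.05, 20 of the 26 were higher and 0 lower, beside the background of 4.66% and 4.44%. In 9 of the 26 every fentanyl library exceeded every saline library, which held for 0.944% of all features tested. These features come from the same long transcripts and in part overlap in position, so they are not independent of each other, and none had an adjusted edgeR p under 0.05.

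The 13 features of 200 nt or more all had an unadjusted edgeR p under 0.05, between 0.000178 and 0.0325. Their log2 fold changes ran from 0.25 to 0.57 with a median of 0.39, compared with a median of 0.00 over all features. The feature of 955 nt at positions 2740 to 3694 had 25054 CPM in the lowest, 31065 in the median and 35025 in the highest fentanyl library. Its saline values were 20987 and 18615 CPM in males, and 23671 and 20965 CPM in females, all below the lowest fentanyl library. The log2 fold change was 0.55 ± 0.13 (SE; unadjusted edgeR p of 0.00061, edgeR adjusted p = 0.314). The feature of 297 nt at 9870 to 10166 had 3313, 3950 and 4570 CPM as lowest, median and highest fentanyl values, and 2550, 2324, 3064 and 2656 CPM in the saline libraries, again with no overlap. Its log2 fold change of 0.57 ± 0.11 was the largest of the 13 (unadjusted edgeR p of 0.000178, edgeR adjusted p = 0.183). The feature of 1830 nt at 11736 to 13565 was at 25396 to 33787 CPM with fentanyl and 18278 to 23288 CPM with saline, a log2 fold change of 0.48 ± 0.12 (edgeR adjusted p = 0.321).

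The smallest difference among the 13 belonged to the feature of 784 nt at 8599 to 9382. It held 16578 to 23701 CPM with fentanyl and 16221, 16519, 18940 and 16310 CPM with saline, so that female saline 1 lay inside the fentanyl range. Its log2 fold change was 0.25 ± 0.10 (edgeR adjusted p = 0.514). As a part of the mitochondrial counts, this feature made up 8.23% ± 0.793 with fentanyl and 9.24% ± 0.378 with saline. The 955 nt feature made up 12.5% ± 0.45 and 11.4% ± 0.302. The most abundant feature, of 1545 nt at 5323 to 6867, made up 22.3% ± 0.598 and 23.1% ± 0.277 of the mitochondrial counts, with 46699 to 64258 CPM and 38478 to 48912 CPM.

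Levels per length differed widely along the chromosome. In saline rats the highest level of the long features was 41795 CPM per kb, for the 204 nt feature at 7758 to 7961, and the lowest was 294 CPM per kb, for the 1378 nt feature at 10160 to 11537. The 204 nt feature overlaps the start of the 681 nt feature (7919 to 8599) on the same strand. The 1378 nt feature overlaps the end of the 297 nt feature (9870 to 10166), also on the same strand. The 297 nt feature stood at 8918 CPM per kb. How multi-mapped reads were treated is not given in the sources used here, and whether this has a part in the gap was not tested. The only long feature on the minus strand, of 519 nt at 13543 to 14061, overlaps the end of the 1830 nt feature on the other strand. It stood at 2676 CPM per kb in saline and 3476 CPM per kb in fentanyl rats. Its log2 fold change was 0.39 ± 0.09 (edgeR adjusted p = 0.319), and its fentanyl libraries (1643 to 1947 CPM) did not overlap the saline libraries (1281 to 1552 CPM). The 1378 nt feature was also higher with fentanyl, by 0.32 ± 0.11 on the log2 scale.

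**Figure D2:**
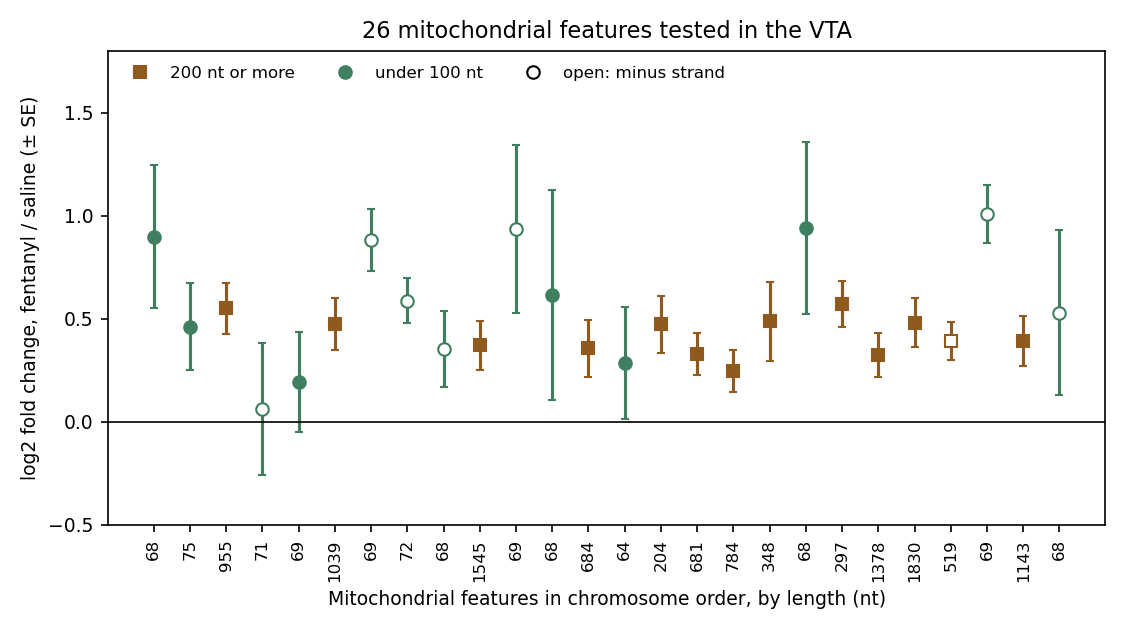
Log2 fold change of fentanyl over saline (vertical axis, ± SE) for the 26 mitochondrial features tested in the VTA, in chromosome order and labelled by length in nt; squares are features of 200 nt or more, circles those under 100 nt, and open symbols lie on the minus strand. All 26 points lie above 0, the long features between 0.25 and 0.57 and the short ones between 0.06 and 1.01.

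The features under 100 nt varied more. Of 22 listed, 19 had a count and 13 were tested. Of these, 7 had an unadjusted edgeR p under 0.05, all of them higher, and the median log2 fold change was 0.59. The count of 7 was 4 without female fentanyl 1 and 3 without male saline 1. The feature with the smallest p of all 14400 was one of them, of 69 nt on the minus strand at 14062 to 14130. It held 164, 160 and 165 CPM in the male fentanyl libraries 1, 2 and 3, and 218, 189 and 118 CPM in the female fentanyl libraries 1, 2 and 7. The saline values were 81.3 and 75.6 CPM in males, and 89.5 and 93.0 CPM in females. All 6 fentanyl libraries were higher than all 4 saline libraries, with female fentanyl 7 the nearest to them. The log2 fold change was 1.01 ± 0.14 (unadjusted edgeR p of 4.8e-06, edgeR adjusted p = 0.0686, DESeq2 adjusted p = 1.0e-06). Over the 10 libraries left out in turn, the log2 fold change stayed between 0.93 and 1.11, while the adjusted edgeR p ran from 0.000163 without female fentanyl 7 to 0.585 without male saline 1.

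A further pair of short features on the minus strand followed. The feature of 69 nt at 5010 to 5078 had 50.7, 67.4 and 77.8 CPM as lowest, median and highest fentanyl values and 29.7 to 41.7 CPM in the saline libraries, a log2 fold change of 0.88 ± 0.15 (edgeR adjusted p = 0.164). The feature of 72 nt at 5081 to 5152 had 248, 308 and 354 CPM with fentanyl and 192 to 222 CPM with saline, a log2 fold change of 0.59 ± 0.11 (edgeR adjusted p = 0.164). Neither overlapped between the groups. DESeq2 gave these features adjusted p of 0.00053 and 0.0011.

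The most abundant short feature, of 69 nt on the minus strand at 6865 to 6933, was uneven within the fentanyl group. It stood at 14874 CPM in female fentanyl 1 and 10510 CPM in male fentanyl 3, and between 3447 and 5939 CPM in the other 4 fentanyl libraries. The saline libraries ran from 3537 to 4645 CPM, within the fentanyl range. Its log2 fold change of 0.94 ± 0.41 carried an adjusted edgeR p of 0.549, and it was 0.57 without female fentanyl 1. This feature overlaps the end of the 1545 nt feature on the other strand. The strand setting of the counts is not given in the sources used here. Reads of the strands therefore cannot be told apart, for this feature or for the other features described on the minus strand. The smallest value among the short features was 0.06 ± 0.32, for the feature of 71 nt at 3761 to 3831, which had 2.72 to 10.4 CPM with fentanyl and 4.71 to 7.80 CPM with saline.

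Outside the mitochondrial chromosome, 4 features are given by identifier, the 2 with the smallest p in each direction. ENSRNOG00000001416 lies on chromosome 12 at 22677607 to 22680630, on the minus strand, with 3 exons. Its fentanyl values were 45.9, 50.2 and 42.7 CPM in males and 64.1, 42.7 and 42.4 CPM in females. Its saline values were 31.4 and 33.2 CPM in males and 25.7 and 22.1 CPM in females. The groups did not overlap, with means of 48.0 ± 8.46 CPM (SD, n = 6) and 28.1 ± 5.09 CPM (n = 4). The log2 fold change was 0.79 ± 0.15 (SE; unadjusted edgeR p of 0.000125, edgeR adjusted p = 0.164, DESeq2 adjusted p = 0.00411). It was 0.53 in males and 1.06 in females.

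ENSRNOG00000025764, on chromosome 19 at 11302125 to 11302938 (minus strand, 5 exons, 348 nt in the exons), was low in all saline libraries. It had 0.668 and 1.05 CPM in male saline and 2.19 and 1.45 CPM in female saline rats. The fentanyl values were 10.5, 8.26 and 2.86 CPM in males and 3.15, 7.54 and 10.8 CPM in females, all above saline but spread widely. The log2 fold change was 2.46 ± 0.47 (unadjusted edgeR p of 0.000126, edgeR adjusted p = 0.164, DESeq2 adjusted p = 0.0011). Counts behind these values were few, from 4 to 62 per library. Over the 14 NAc libraries the feature stood higher, at 22.6 ± 9.19 CPM with fentanyl and 8.64 ± 1.46 CPM with saline (SD). Whether punch placement has a part in its VTA values was not tested.

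ENSRNOG00000013679, on chromosome 17 at 13488376 to 13553974 (plus strand, 24 exons), had the smallest p among the lower features. Its saline values were 107 and 100.2 CPM in males and 83.3 and 71.3 CPM in females. The fentanyl values were 59.6, 65.1 and 74.3 CPM in males and 54.7, 50.9 and 59.2 CPM in females. Male fentanyl 3 lay above female saline 2, so the groups overlapped when the sexes were put together, while within each sex they did not. The log2 fold change was −0.56 ± 0.10 (unadjusted edgeR p of 4.6e-05, edgeR adjusted p = 0.164, DESeq2 adjusted p = 0.0011).

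ENSRNOG00000054549, on chromosome 20 at 12842884 to 12870497 (minus strand, 22 exons), had 45.7 and 45.7 CPM in male saline and 38.7 and 40.6 CPM in female saline rats. With fentanyl it had 21.01, 22.9 and 25.1 CPM in males and 21.1, 27.6 and 33.3 CPM in females. All 6 fentanyl libraries were below all 4 saline libraries. The log2 fold change was −0.76 ± 0.14 (unadjusted edgeR p of 7.7e-05, edgeR adjusted p = 0.164, DESeq2 adjusted p = 0.00295).

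**Figure D3:**
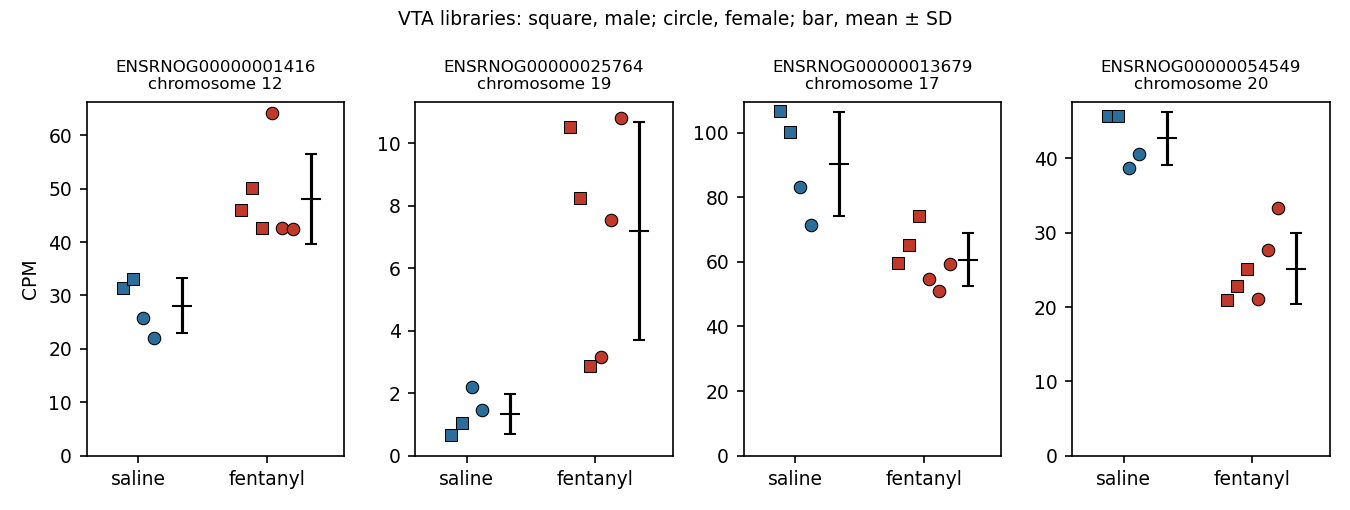
CPM in each VTA library (vertical axes, from 0) for the 4 features given by identifier, by treatment; squares are males, circles are females, and bars give the mean ± SD. ENSRNOG00000001416 and ENSRNOG00000025764 are above saline in all 6 fentanyl libraries, ENSRNOG00000054549 is below saline in all 6, and ENSRNOG00000013679 overlaps by male fentanyl 3 at 74.3 CPM.

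Among the 20 features with the smallest p, 10 in each direction with a mean of at least 1 CPM, 4 were mitochondrial, all of them higher. The other 16 lay scattered over the chromosomes. The groups did not overlap in 17 of the 20, against 0.944% of all features with every fentanyl library above saline and 1.4% with every one below. Absolute log2 fold changes ran from 0.41 to 2.46 and adjusted edgeR p from 0.0686 to 0.242. All 20 had the same sign in males and in females (59.1% of all features), and 0 of 20 had an unadjusted edgeR p under 0.05 for the difference between the sexes (3.31% of all features). Picking by the smallest p of both sexes together favours groups that do not overlap and sexes that share a sign, so these counts describe the choice and are no test. DESeq2 called all 20, but it used the same libraries and design that served to pick them, so this is no independent evidence.

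The NAc libraries were not used to pick those 20 features, although they come from the same rats and 4 further ones. Over the 14 NAc libraries, edgeR called 502 of 13248 features (3.79%), 291 higher (2.2%) and 211 lower (1.59%). Of the 20, 19 were tested in the NAc and 18 had the same sign there, as did 63.8% of the 12924 features tested in both regions. Called in the NAc with the same sign were 5, of which 4 were higher and 1 lower, and 0 were called with the opposite sign.

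The 5 were the 297 nt mitochondrial feature, ENSRNOG00000025764, ENSRNOG00000013679, and a feature each on chromosomes 1 and X. ENSRNOG00000025764 stood at 22.6 ± 9.19 CPM with fentanyl and 8.64 ± 1.46 CPM with saline in the NAc, a log2 fold change of 1.40 ± 0.24 (edgeR adjusted p = 0.00831). ENSRNOG00000013679 stood at 27.4 ± 4.40 and 37.8 ± 5.19 CPM, a log2 fold change of −0.46 ± 0.11 (edgeR adjusted p = 0.0270). The feature on chromosome 1 at 201499028 to 201548513 (plus strand, 9 exons) had 149 ± 44.5 CPM with fentanyl and 59.7 ± 14.3 CPM with saline in the VTA. Its log2 fold change was 1.33 ± 0.23 in the VTA (edgeR adjusted p = 0.183) and 0.81 in the NAc (edgeR adjusted p = 0.0176). The feature on chromosome X at 43625169 to 43629765 had 27.9 ± 3.14 and 16.6 ± 2.98 CPM in the VTA, with log2 fold changes of 0.75 in the VTA and 0.83 in the NAc (edgeR adjusted p = 0.164 and adjusted p = 0.0112). The 297 nt mitochondrial feature had 0.42 ± 0.11 in the NAc (edgeR adjusted p = 0.0436).

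**Figure D4:**
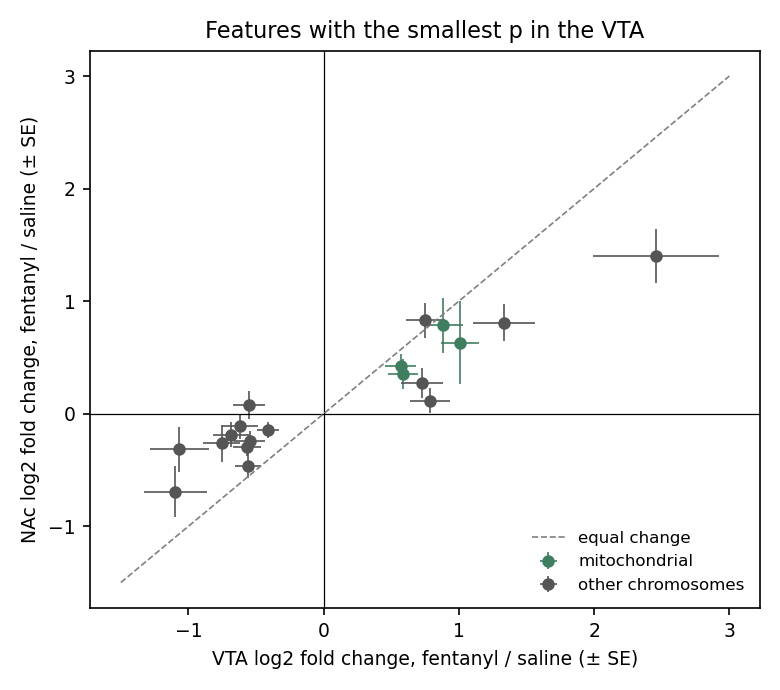
Log2 fold change of fentanyl over saline in the VTA (horizontal axis, ± SE, 10 libraries) and in the NAc (vertical axis, ± SE, 14 libraries) for the 19 of 20 smallest-p VTA features that were also tested in the NAc; the dashed line marks equal change and green points are mitochondrial. Of the 19, 18 have the same sign in both regions, and the NAc values run from −0.69 to 1.40.

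The difference of the fentanyl effect between the regions was tested within the 10 rats that gave both regions. Of 14795 features, 0 passed at an adjusted edgeR p under 0.05 (0%), with a lowest adjusted p of 0.540. DESeq2 called 1 feature. At an unadjusted edgeR p under 0.05 there were 763 (5.16%), with the VTA effect above the NAc effect in 420 (2.84%) and below it in 343 (2.32%). That count was 1177 without male fentanyl 1, 1177 without male saline 3 and 507 without female saline 2. Of the 20 smallest-p features, 9 were under 0.05 in this test before adjustment, among them ENSRNOG00000025764 (0.97 ± 0.39 on the log2 scale) and the chromosome 1 feature (0.62). The VTA values that enter the difference also served to pick them, so this count is no test. The NAc values given next come from all 14 NAc libraries and the differences from the 10 rats, so they do not subtract exactly. ENSRNOG00000001416 had a log2 fold change of 0.12 ± 0.11 in the NAc, where it stood at 33.2 ± 4.12 and 30.8 ± 3.83 CPM. Its VTA effect minus its NAc effect was 0.78 ± 0.17 on the log2 scale (unadjusted edgeR p of 0.000232, edgeR adjusted p = 0.688). ENSRNOG00000054549 was at −0.26 ± 0.16 in the NAc (edgeR adjusted p = 0.350), and the difference between regions was −0.54 ± 0.26 (edgeR adjusted p = 0.927). Of the 30 mitochondrial features in this test, 1 had an unadjusted p under 0.05, near the background share. In the NAc the median over the long mitochondrial features was 0.24 on the log2 scale, with 4 of 13 at an unadjusted edgeR p under 0.05, all higher, and 1 of 13 called. Of the 16 mitochondrial features under 100 nt tested there, 2 were higher and 1 lower at that threshold. Among all features tested in the NAc, 22.5% were under 0.05 before adjustment, 12% higher and 10.5% lower.

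The sexes were compared by the interaction of sex and treatment. The edgeR test called 0 of 14400 features for the female effect minus the male effect (0%), with a lowest adjusted p of 0.251. DESeq2 called 1 feature. At an unadjusted edgeR p under 0.05 there were 476 (3.31%), 236 with the greater effect in females (1.64%) and 240 with the lesser (1.67%). The count of 476 was 835 without female saline 1 and 262 without female saline 2, and without male saline 1 it divided into 153 and 148. In males alone as a contrast of the joint fit, 0 features passed, and 648 (4.5%) were under 0.05 before adjustment, 296 higher (2.06%) and 352 lower (2.44%). In females 0 passed, and 1098 (7.62%) were under 0.05 before adjustment, 547 higher (3.8%) and 551 lower (3.83%). Across features, which are not independent replicates, the male and female log2 fold changes had a Spearman correlation of 0.219 and the same sign in 59.1%, as a description of these libraries. Over the long mitochondrial features the median change on the log2 scale was 0.45 for males and 0.39 for females, and over those under 100 nt it was 0.72 and 0.45. None of the 26 mitochondrial features had an unadjusted edgeR p under 0.05 for the difference between the sexes.

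Classes of features by genomic span were also compared, since very long genes are in the brain enriched for adhesion and synaptic proteins. Of 112 tested features spanning 500 kb or more, 3 were higher and 11 lower at an unadjusted edgeR p under 0.05. A positive sign was found in 32.1% of them, against 50.3% of all features. Their median log2 fold change was −0.07, and it was 0.00 in males and −0.19 in females. Leaving out 1 library moved it to −0.11 without male fentanyl 1 or male saline 3, to −0.10 without male saline 1 and to −0.03 without female saline 2. Features spanning over 100 kb and under 500 kb had a median of −0.02, with 63 higher and 91 lower of 1818. Those over 10 kb to 100 kb had 409 higher and 372 lower of 7998, and those up to 10 kb had 176 higher and 165 lower of 4446. The shares in these last classes were close to the background of 4.66% and 4.44%. Nuclear features with a single exon shorter than 500 nt had 15 higher and 20 lower of 484, and a median of −0.06, which was −0.03 without female fentanyl 7 and −0.03 without female saline 2. Without male saline 1 the counts in that class were 9 and 14.

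**Figure D5:**
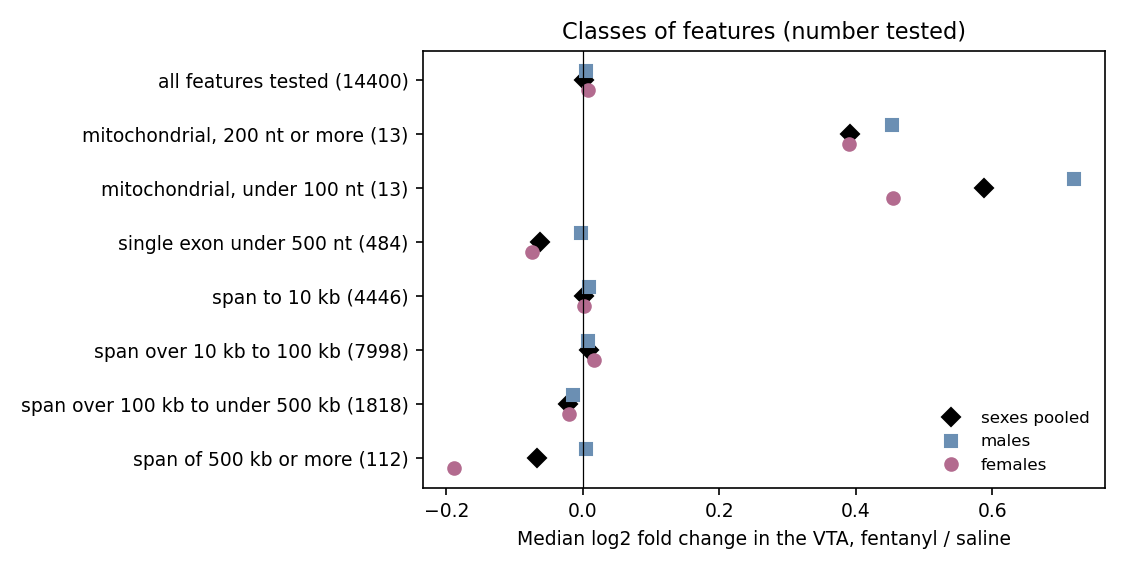
Median log2 fold change of fentanyl over saline in the VTA (horizontal axis) for classes of features, with the number tested in brackets; diamonds are both sexes together, squares males and circles females. The mitochondrial classes lie at 0.39 and 0.59, and the features spanning 500 kb or more lie at −0.07, with females at −0.19 and males at 0.00.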

How the data were processed

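The authors deposited raw counts per Ensembl rat feature, 1 table per library, with no normalization. The submitters' processing notes name DESeq2, STAR 2.5.2b, Trimmomatic 0.36, Subread 1.5.2 and featureCounts without their roles. Not given in the sources used here are the genome build, the annotation, whether counting used strand, and how multi-mapped reads were treated; positions are those of the deposited tables. The authors' tables list 32552 features, 25332 with a count in the VTA, and 14400 passed filterByExpr.

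The test was edgeR 4.0.16 (R 4.3.3): TMM scaling, robust dispersion and a quasi-likelihood F test of fentanyl minus saline with sex as covariate, two-sided, called at a Benjamini-Hochberg adjusted p under 0.05. Each rat gave 1 VTA library, so p-values measure the spread between rats. Sex differences came from 4 groups of sex and treatment, region differences from a fit with rat as block. Standard errors were derived from the F statistic. CPM values are scaled by TMM; principal components used log2 CPM with a prior count of 2. DESeq2 1.42.0 and limma 3.58.1 (voom with quality weights) were alternatives. The edgeR fit over both sexes was tested on simulated data, and the other tests were not. Replicates were no copies of each other (chi-square per degree of freedom 5.94 to 20.9).

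The members, lists and tests were chosen with earlier results of these data known. No table used here pairs the identifiers with symbols, so the gene lists, cell type markers and genes fixed by symbol were not analysed, and no sequence was matched. Sets by position, span and length were chosen after the data were seen. The naming rule, the 10 features in each direction with the smallest p and a mean of at least 1 CPM, was fixed for genes with a symbol. It was applied here without that condition. Only 2 identifiers per direction are printed, and mitochondrial features are given by position. The features on chromosomes 1 and X were named after their NAc values were seen.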

Additional observations from a re-analysis of the deposited data

Results flagged for a closer look

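Within the 6 fentanyl or the 4 saline libraries, 64 groups of values were examined for a library far from the others, and 5 were marked; chance alone marks about 1 in 20. ENSRNOG00000001416 was at 64.1 CPM in female fentanyl 1, against 50.2 CPM in the next library. Female saline 1 stood above the other saline libraries for 3 mitochondrial features. These were the feature of 69 nt at 3835, at 97.1 CPM against 54.1 CPM in the next, the feature of 1039 nt at 3904, at 17017 CPM against 13117 CPM, and the feature of 784 nt at 8599, at 18940 CPM against 16519 CPM. The feature of 68 nt at 9800 was at 5.08 CPM in female fentanyl 1, against 3.02 CPM in the next.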

How the results depend on the processing

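The count of features called for fentanyl against saline, 0 in edgeR, was 50 with DESeq2, 16 with voom and quality weights (7 higher, 9 lower), 521 with no low-count filter (303 higher, 218 lower; 510 of the 521 were among the 14400 tested features), 2 in males alone and 5 in females alone. It stayed at 0 with RLE scaling, with mitochondrial features left out of the scaling, with no sex covariate and with the mean over 4 groups. Leaving out each library gave 0 to 1, with 1 without male fentanyl 2 (a feature on chromosome 9) and 1 without female fentanyl 7 (the mitochondrial feature of 69 nt at 14062). For the sex difference, DESeq2 gave 1, no filter 109, and leaving out a library 0 to 5, with 5 without female saline 1 and 1 without male fentanyl 2. For the region difference these were 1, 128 and 0 to 1, with 1 without male fentanyl 1. The cause was not tested.

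Animal numbers were not taken as pairs. Residuals of same-numbered rats correlated at −0.0120 to 0.206 over 4 pairs (mean 0.103). Over 8 pairs with different numbers they correlated at −0.206 to 0.0578 (mean −0.0515). With 2 saline rats per sex, the residuals of these rats mirror each other, so these values cannot decide whether the numbers pair the rats. With the number as a replicate block, 1 feature was called. The difference in mitochondrial share, 4.69 points, was 5.71 with that block (exact permutation p = 0.125), 4.96 in males alone (p = 0.1, exact) and 4.41 in females alone (p = 0.2, exact), designs that cannot reach p = 0.05. Leaving out each library gave 4.07 to 5.50 points (exact permutation p = 0.0167 to 0.05).

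The mitochondrial feature of 71 nt at 3761, at 0.06 on the log2 scale, was −0.39 in females alone, −0.13 without male fentanyl 3, −0.06 without female fentanyl 1, −0.02 without male saline 1 and −0.09 without male saline 3; over the 10 libraries left out in turn it ran from −0.13 to 0.26. That of 69 nt at 3835, at 0.19, was −0.13 in females alone. The other 24 mitochondrial features kept a positive sign in all 20 alternatives. The feature of 69 nt at 14062 passed an adjusted p of 0.05 in 6 of the 20. The median of features spanning 500 kb or more, −0.07, was 0.01 in males alone and −0.18 in females alone. Mitochondrially encoded proteins could not be picked out by name for a share of their own, since no feature could be paired with a name. Chosen by length instead, the long features gave a difference in share of 4.35 points (exact permutation p = 0.03). Which of these long features encode proteins was not checked by name.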

Other observations

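Features that mark 1 region were compared in the VTA as sets, chosen on the same libraries. Of 304 tested features at least 4-fold higher in the NAc, 13 were higher and 29 lower in the VTA of fentanyl rats at an unadjusted edgeR p under 0.05. Their median log2 fold change was −0.09, at 0.04 in males and −0.22 in females. The highest in this set, 2.46, was that of ENSRNOG00000025764. Of 469 tested features at least 4-fold higher in the VTA, 25 were higher and 12 lower, with a median of −0.02. Over all features tested, 4.66% were higher and 4.44% lower at that threshold. The summed level of the first set in VTA libraries was highest in female saline 2, at 9576 CPM, and lowest in female fentanyl 2, at 6592 CPM. Female saline 2 also held the lowest sum of the second set, at 16425 CPM.

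Over the 21 chromosomes other than the mitochondrial and the Y, the median log2 fold change ran from −0.03 on chromosome 12 to 0.03 on chromosome 13. The share of features with an unadjusted edgeR p under 0.05 ran from 6.53% to 10.8%, around the 9.1% of all features.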
